A study of Miniopterus schreibersii with 14 samples.

Results

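The components described here are 200 assembled RNAs that favoured the fetal metatarsals over the metacarpals in embryos of the bent-wing bat *Miniopterus schreibersii*. They were selected on the scores of those same fetal libraries. A component needed a mean score of at least 50 over both, and a metatarsal to metacarpal ratio, with 1 added to each score, of at least 4. Of 64618 components, 13615 reached the mean, 426 of these also reached the ratio once comp3599_c0 and comp7133_c0 were left out, and the 200 highest ratios were kept. The score is the submitters' normalized count, rounded to a whole number. By the ratio, comp3599_c0 would have ranked above all of the 200. The ratio among the 200 was lowest at 8.01, had a median of 10.8 and was highest at 151. These ratios chose the components and are no result.

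Autopods, the ends of the limbs that become hand and foot, were dissected at 3 periods, with 1 RNA library for each piece. At stage S14 the forelimb bud and the hindlimb bud were each cut into anterior, middle and posterior pieces. At stages S15-17 the forelimb gave digit I (the thumb), the web of digits I-II, digits II-V and the web of digits II-V, while the foot gave digits I-V and their web. The fetal pieces were metacarpals II-V and metatarsals I-V, so the hindlimb digits and metatarsals include a digit I that the forelimb pieces compared with them lack. No genotype, treatment or age beyond the stage is given. Whether a library came from 1 embryo or several, and whether pieces share an embryo, was not given in the sources used here. Every p-value below therefore measures the spread between pieces, never between repeats of a piece.

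In limb development a bud of mesenchyme lays down cartilage rays that become the digits, and the metapodials, the long bones of palm and sole, later ossify from such rays. Interdigital tissue regresses in a free digit but is retained as flight membrane in a bat wing, where digits II-V lengthen greatly. The foot and the thumb stay short and free. Components carry assembly numbers: 0 of 64618 matched the 22775 genes of the name table, so neither gene roles nor tissue markers could be given, and a component can be a piece of a transcript. Among the 200, 4 had a partner of the same assembly number outside the list. Of these partners, 2 reached the fetal mean and 0 the ratio.

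The libraries held 4550754 (digit I) to 7648427 (metacarpals) reads, as recovered from the spacing of low scores, and 1 read was worth a score of 1.29 to 2.23. A score below about 10 therefore rests on a few reads. In these pieces of mixed tissue, fewer cells of a type and less RNA per cell cannot be told apart.

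Before the fetal period the 200 components were scarce. Of these, 5 (2.5%) were at 0 in all 12 earlier libraries and 137 (68.5%) had an earlier mean score under 10, against 5.68% of the 13615 components with the same fetal mean. The median of the earlier means was 4.29, against 276 in that larger set. The earlier mean was 50 or more for 19. The 200 components chosen in the same way for metacarpals stood between, with 89 (44.5%) under 10 and a median of 14.2.

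Together the 200 held 0.0361% (forelimb anterior bud) to 0.0669% (forelimb middle bud) of the reads of an S14 library. At S15-17 they held 0.0553% in the web of digits II-V, 0.0554% in digit I, 0.0593% in the foot web, 0.0851% in the web of digits I-II, 0.0887% in digits II-V and 0.106% in hindlimb digits (exact 95% interval 0.103% to 0.109%). In the fetal libraries they held 0.445% (0.44% to 0.449%) of metacarpal reads and 4.57% (4.56% to 4.59%) of metatarsal reads. The intervals cover counting error only. Hindlimb digits thus stood highest before the fetal period, far below the metatarsals, and digit I and the web of digits II-V lowest at S15-17. A few components weigh heavily in these shares. Of the summed score, comp363_c0 alone made 1768 of 3979 in the forelimb anterior bud and 2355 of 5093 in the web of digits II-V. In hindlimb digits it made 2868 of 10370, and comp510_c0 made 1189.

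**Figure D1:**
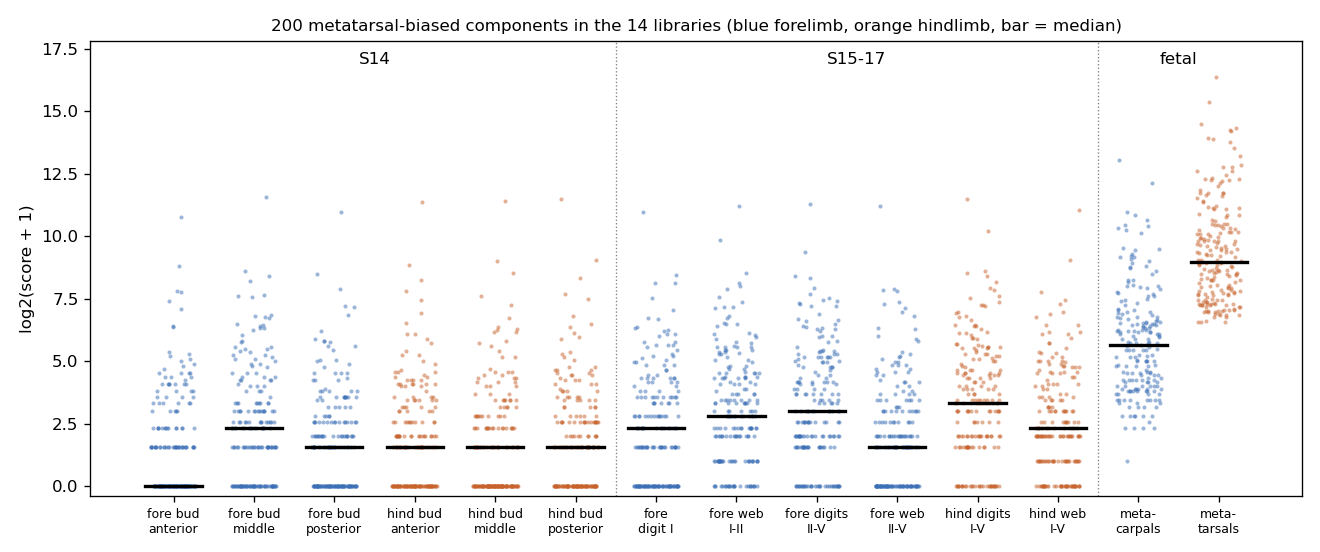
Scores of the 200 components in each of the 14 libraries, on a log2(score + 1) axis, grouped by period. The median lies between 0 and 9 in the earlier libraries, at 49 in metacarpals and at 506.5 in metatarsals, and the fetal pair chose the components.

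Nearly all of the 200 scored far higher in metatarsals than in the earlier hindlimb digits, and in most the metacarpals also stood above the earlier forelimb digits. This is a description, since the fetal scores chose the list and there is 1 library on each side. Metatarsals were over 4-fold above hindlimb digits in 195 of 200 (97.5%, against 12.6% of the 13615). Metacarpals were over 4-fold above forelimb digits II-V in 129 (64.5%, against 11.7%). Both held for 129 (64.5%, against 8.65%). The median log2 difference was 5.99 in the hindlimb, from 0.639 to 10.5, and 2.58 in the forelimb, from -3.84 to 7.18.

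In 66 components (33%, against 3.96% of the 13615) the metatarsals were over 4-fold above hindlimb digits while the metacarpals lay within 4-fold of digits II-V. In 3 (1.5%, against 0.925%) the metacarpals lay over 4-fold below those digits with the metatarsals within 4-fold. Metatarsals exceeded every earlier library in 199 (99.5%, against 34.7% of the 13615). Metacarpals did so in 170 (85%, against 33.1%). For the metacarpal-chosen 200 the medians were 4.54 in the forelimb and 0.81 in the hindlimb, and both were over 4-fold above the digits in 65.

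**Figure D2:**
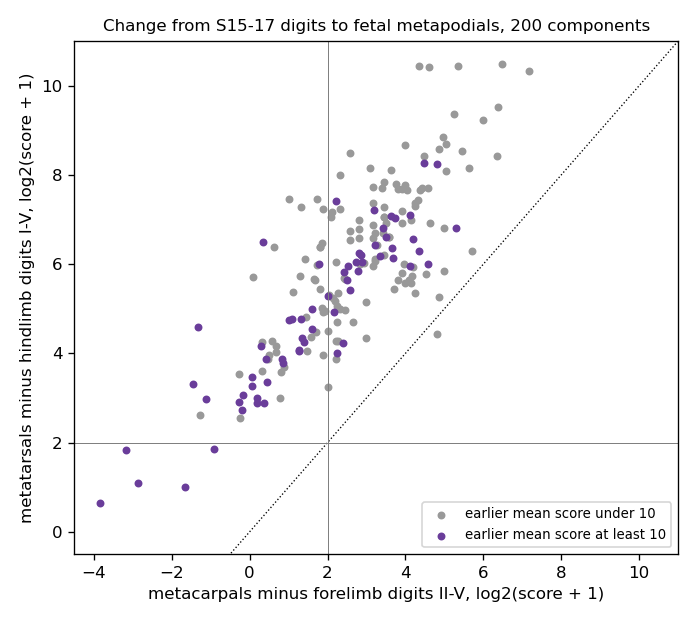
Each point is a component, with the log2 difference of metacarpals from forelimb digits II-V on the x axis and of metatarsals from hindlimb digits on the y axis, for the 200, with colour for an earlier mean score under or at least 10. Of the points, 129 lie past 4-fold on both axes and 66 on the y axis alone.

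The component of highest metatarsal score, comp510_c0, had an earlier mean of 365.92, against a median of 4.29 over the 200. It scored 83, 298 and 114 in the anterior, middle and posterior forelimb bud and 52, 71 and 58 in the hindlimb bud. At S15-17 it scored 350 in digit I, 912 in the web of digits I-II, 658 in digits II-V, 79 in the web of digits II-V, 1189 in hindlimb digits and 527 in the foot web. The metacarpals had 8511 and the metatarsals 84088. Its S14 and S15-17 ranges overlapped only through the web of digits II-V.

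The next in metatarsal score, comp363_c0, was already abundant and nearly level early. It scored 1768 to 3018 over the S14 buds and 2019 to 2868 over the S15-17 pieces, then 4522 in metacarpals and 42207 in metatarsals. At the other extreme, comp11037_c0 scored 2 in the anterior hindlimb bud and 0 in the other 11 earlier libraries, 4 in metacarpals and 254 in metatarsals, a ratio of 51. The highest ratio, 151, belonged to comp19368_c0, described with the foot below.

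At the edge of the list, comp8361_c0 was the last inside, at 89 in metacarpals and 720 in metatarsals, a ratio of 8.011. The first outside was comp15578_c0, at 55 and 447, a ratio of 8. Nothing but rank separates them.

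For the 12 earlier libraries, differences were tested with limma on log2(score + 1), over the 19529 components with an earlier mean score of at least 10. Only 63 of the 200 reached that minimum, so a count over them does not speak for the 137 others. A component that is low in 1 period or piece can have passed through the other, where it is high. A component is called where the Benjamini-Hochberg adjusted p over all 19529 was under 0.05, and log2 differences understate the change of low scores.

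From S14 to S15-17, 27 of the 63 rose and 3 fell, where 17.5% of all tested components rose and 22.5% fell. The median log2 change was 1.05, against -0.04 over all tested. The 27 that rose had changes of 0.773 to 4.07, with 16 over 4-fold. Of the 63, 43 had a mean of at least 10 in each period, and 13 of these rose and 3 fell. The 18 that reached 10 only at S15-17 gave the other 14 rises. Over all 200, without the minimum, the S15-17 mean exceeded the S14 mean in 155, was lower in 34 and equal in 11. The median of the means went from 2.08 to 6.17. Most of the 200 metacarpal-chosen components were also higher at S15-17, with 118 above, 62 below and 20 equal. Their median went from 10.2 to 16.8. A higher S15-17 mean was thus not particular to the metatarsal-chosen list, though more frequent in it. These counts were not tested.

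The log2 change was largest in comp8270_c0. It scored 2, 7 and 3 in the forelimb bud and 10, 10 and 3 in the hindlimb bud, then 64 in digit I, 59 in the web of digits I-II, 103 in digits II-V, 111 in their web, 113 in hindlimb digits and 125 in the foot web. The periods did not overlap, and the means were 5.83 ± 3.66 and 95.8 ± 27.6 (SD, n = 6 libraries each). The log2 change was 4.07 (SE 0.33, limma adjusted p = 6.96e-07). Metacarpals stayed at that level, at 108, and metatarsals had 1266.

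Component comp7118_c0 scored 4, 5 and 0 in the forelimb bud and 0, 0 and 2 in the hindlimb bud. At S15-17 it had 13 in digit I, 40 and 47 in the web of digits I-II and in digits II-V, 7 in the web of digits II-V, 45 in hindlimb digits and 29 in the foot web. The periods did not overlap, and the log2 change was 3.58 (SE 0.62, limma adjusted p = 0.0004). Metacarpals had 594 and metatarsals 6202.

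The 3 that fell were comp8361_c0, comp15044_c0 and comp5495_c0. Component comp8361_c0 scored 362 to 453 in forelimb and 467 to 524 in hindlimb buds, then 169 to 239 over the S15-17 pieces, with no overlap. The log2 change was -1.08 (SE 0.12, limma adjusted p = 9.62e-06). The metacarpals went lower still, to 89, while the metatarsals had 720. Component comp15044_c0 scored 40 to 110 in buds and 17 to 34 at S15-17, with a log2 change of -1.09 (SE 0.20, limma adjusted p = 0.0006). With upper-quartile scaling that call was lost, at -0.70 (limma adjusted p = 0.0903). Its metacarpals, at 36, lay near the later range and its metatarsals, at 359, above all. Component comp5495_c0, named after its values were seen, scored 143 to 208 in buds, 67 to 164 at S15-17, 21 in metacarpals and 232 in metatarsals. Its log2 change was -0.579 (SE 0.185, limma adjusted p = 0.0218).

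Periods without overlap were less frequent than calls: every S15-17 score lay above every S14 score in 8 of 63 (12.7%, against 7.02% of all tested) and below in 2 (3.17%, against 12.9%). Of the 200, 32 were at 0 in all 6 S14 libraries, and 27 of these had reads at S15-17. Component comp9058_c0 led them with 25 S15-17 reads, at least 8.53-fold higher when 3 reads in all are allowed to the S14 group.

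Each limb fitted alone also gave rises, 16 in forelimb and 24 in hindlimb libraries, with 3 falls in each. Of all 19529, 2479 and 1742 rose and 3133 and 2800 fell. Over both limbs the count of rises ranged from 20 without hindlimb digits to 36 without the web of digits II-V. Over all tested these refits gave 2883 and 3263 rises. Upper-quartile scaling took the median of all tested components from -0.04 to 0.355 and that of the 63 to 1.34, with 38 up and 1 down, and over all tested it gave 5116 up and 609 down in place of 3414 and 4400. Stage and kind of dissected piece differ together and cannot be told apart.

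Digits exceeded web in wing and foot, and the order was opposite on the thumb side. The median log2 difference of digit from web over the 63 was 1.36 in the wing region (digits II-V), where 48 were higher in digit and 26 of them over 4-fold. It was 1.06 in the foot, with 56 higher and 15 over 4-fold. On the thumb side it was -0.60, with 15 higher and 47 lower. All tested components had medians of 0.043, 0.031 and 0.0, and 52.8%, 52.3% and 49.6% of them were higher in digit. Over 4-fold higher were 1.36% in the wing and 0.707% in the foot. These are differences of 1 library from 1, with no replicate check.

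Among the 63, 37 (58.7%) were higher in digit in wing and foot but lower on the thumb side, against 9.87% of all tested and 10 (9.01%) of the 111 tested metacarpal-chosen components. Only 8 (12.7%) were higher in digit in all 3 regions, against 16.5%. Without the minimum, the first pattern held for 80 of the 200 (40%) and for 10.3% of the 13615 with the same fetal mean. The metacarpal-chosen components had medians of -0.312 for the thumb, -0.452 for the wing and 0.075 for the foot.

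**Figure D3:**
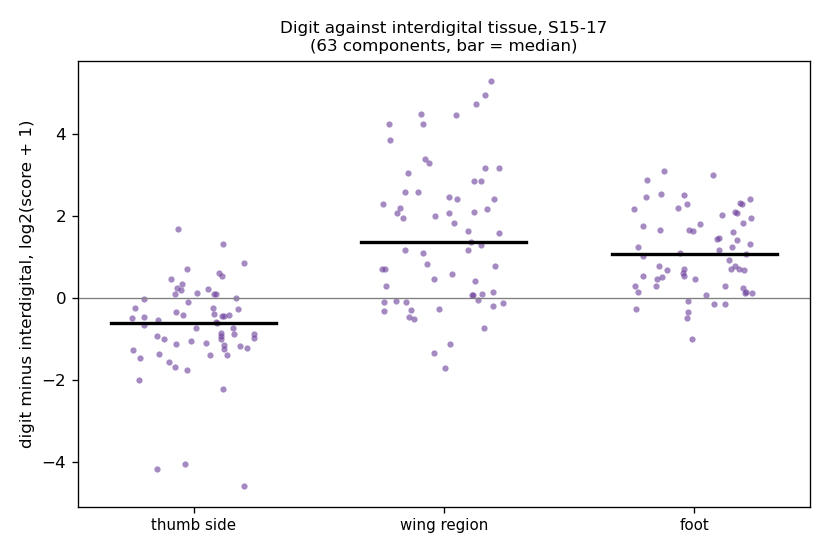
Log2 difference of digit from web at S15-17, by region (thumb side, wing, foot), 1 point per tested component, with the median marked. The medians of the 63 metatarsal-chosen components are -0.60, 1.36 and 1.06.

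Over the 3 regions with region as block, limma called 0 of the 63 in either direction, against 0.911% of all tested. The smallest limma adjusted p was 0.0629, and voom on recovered reads called 2 higher, against 187 of the 19529. At an unadjusted limma p under 0.05, 19 were higher and 1 lower in digit, against 1129 and 760 of the 19529. The difference was positive in 47 of 63 (74.6%, against 54.3%), with a median of 0.52. Leaving out the thumb side gave 26 called, all higher in digit, against 1.67% of all tested, and a median of 1.29. Leaving out the wing gave 0 of the 63, against 86 higher and 15 lower of the 19529, and a median of 0.29. Leaving out the foot gave 0 of all 19529, so its 0 cannot speak for the 63. The median was then 0.35. Upper-quartile scaling lowered the median of all tested components to -0.595 and that of the 63 to -0.10, which changes its sign but leaves it 0.49 above the rest.

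Among components with 1 direction in all 3 regions, comp8806_c1 led the digit side, with 17 against 10 on the thumb side, 78 against 2 in the wing and 69 against 11 in the foot, digit first. Digit exceeded web in all 3 regions, but digit I lay near the webs. Its log2 difference of 2.66 (SE 0.60) missed the threshold in limma (adjusted p = 0.0635), and without the thumb side it was 3.63 (limma adjusted p = 1.01e-09). Toward web, comp11501_c0 had 280 against 367 on the thumb side, 90 against 230 in the wing and 77 against 108 in the foot. That log2 difference was -0.74 (SE 0.22, limma adjusted p = 0.204).

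Component comp20379_c0, the next toward digit, had a log2 difference of 1.86 (SE 0.62, limma adjusted p = 0.28), and comp8361_c0 the next toward web, at -0.33 (SE 0.18, limma adjusted p = 0.618). Without the thumb side comp20379_c0 had 2.62 (limma adjusted p = 3.44e-05).

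A limb difference that recurred over the 5 earlier pairs was not detected for any of the 63. Over these pairs (anterior, middle and posterior bud, digits, web), limma called 0 of 63, against 0.148% of all tested in either direction. The smallest limma adjusted p was 0.21, and voom called 0. At an unadjusted limma p under 0.05, 6 were higher and 2 lower in hindlimb, against 1002 and 606 of the 19529. The median log2 difference of hindlimb from forelimb was 0.05, as against 0.04 over all tested. Hindlimb was higher in all 5 pairs in 2 components (3.17%, against 4.52%) and lower in all 5 in 1 (1.59%, against 3.34%). Without the middle bud pair the median was 0.25 and 71.4% were higher in hindlimb, against 56.2% of all tested, with 0 called.

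The 2 that were higher in all pairs are those with the named positive values. Component comp15044_c0 had bud scores of 40, 55 and 43 (forelimb) and 68, 77 and 110 (hindlimb), then 26 and 28 against 34 and 31 in digits and web. Its log2 difference was 0.62 (SE 0.23, limma adjusted p = 0.515). Component comp11675_c0 scored 85, 90 and 53 against 122, 106 and 69 in buds, then 96 and 55 against 149 and 86. Its log2 difference was 0.48 (SE 0.17, limma adjusted p = 0.47). In the fetal pair the same components had 36 against 359 and 432 against 4540.

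The opposite case was comp6811_c1, lower in all 5 hindlimb pieces yet metatarsal-high. The forelimb buds had 16, 26 and 11 and the hindlimb buds 8, 6 and 10, followed by 146 and 139 in wing digits and web, and 45 and 16 in their foot counterparts. The fetal bones had 53 and 457. The log2 limb difference over 5 pairs was -1.54 (SE 0.38, limma adjusted p = 0.21). Between foot and wing at S15-17 it was -2.36 (SE 0.445, limma adjusted p = 0.034), with the spread taken over all 6 S15-17 libraries.

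In the S14 buds alone 0 of 63 were called higher in hindlimb, against 0.41% of all tested, and 1 lower, against 0.241%. At an unadjusted limma p under 0.05, 7 were higher and 12 lower, against 1710 and 819 of the 19529. The pairs did not share a direction: the median log2 difference was 0.25 in the anterior, -0.77 in the middle and 0.22 in the posterior pair. In the middle pair 45 of 63 were lower in hindlimb, against 8764 of the 19529. Of the 63, 18 (28.6%) were over 4-fold lower, against 1.27% of all tested. Without the middle pair the median over the others was 0.29.

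The component called lower, comp377_c0, scored 29, 115 and 55 in the anterior, middle and posterior forelimb bud and 11, 12 and 11 in the hindlimb bud, with no overlap. The log2 difference was -2.23 (SE 0.41, limma adjusted p = 0.0322). The direction was opposite in the fetal pair, at 1839 in metacarpals and 23036 in metatarsals. The call was lost without the middle pair (limma adjusted p = 0.104) and without the posterior pair (0.13), with voom (0.0546) and with no block (0.174). It was also lost with no minimum (0.569) and with the minimum over all 14 libraries (0.463). Those last fits called 0 of all 59736 and 0 of all 20429 components, so they cannot speak for comp377_c0. The call was kept in 7 of 13 alternatives, over which the limma adjusted p ran from 1.54e-05 to 0.569. Without the anterior pair 5 of the 63 were called lower, against 88 of the 19529. Component comp9516_c0 had 11, 46 and 11 against 2, 0 and 2, a log2 difference of -3.185 that missed the threshold (SE 0.775, limma adjusted p = 0.122). Toward hindlimb, comp15241_c0 had 0, 4 and 3 against 8, 10 and 22 and comp316_c0 had 2, 7 and 2 against 15, 10 and 14. Their log2 differences were 2.28 (SE 0.66, limma adjusted p = 0.181) and 1.73 (SE 0.61, limma adjusted p = 0.273).

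**Figure D4:**
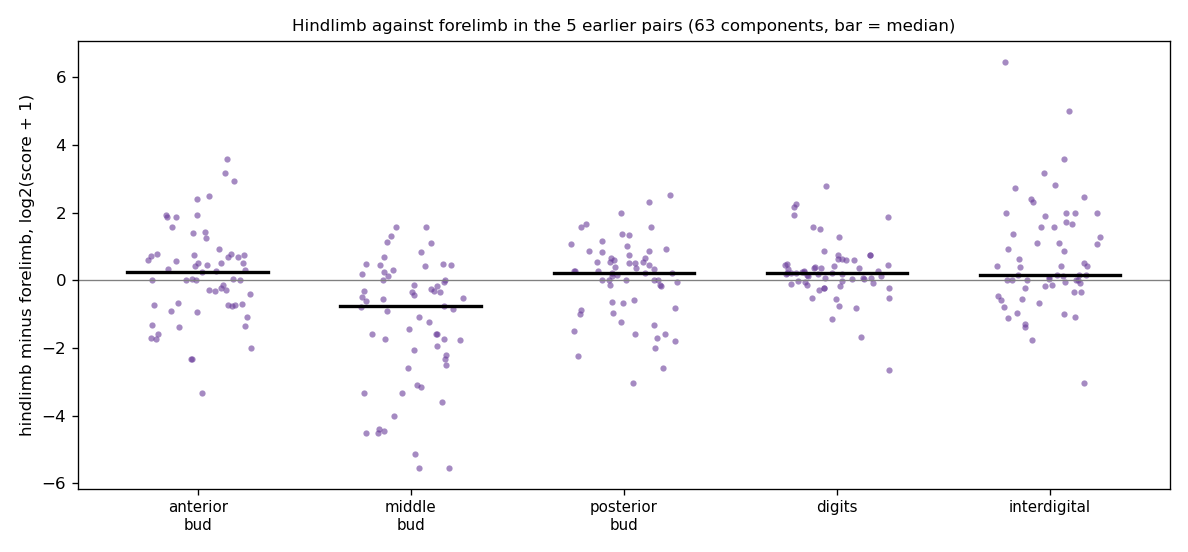
Log2 difference of hindlimb from forelimb in the 5 earlier matched pairs, 1 point per tested component, with the median marked. The medians of the 63 are 0.25, -0.77 and 0.22 in the anterior, middle and posterior buds, 0.21 in digits and 0.17 in web.

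At S15-17, 2 of 63 were called higher in foot than in the wing region (digits II-V and their web), against 0.287% of all tested, and 1 lower, against 0.21%. The difference was positive in 48 (76.2%, against 53.6%), with a median of 0.29. The median moved with single libraries: it was -0.08 without hindlimb digits, -0.20 without the web of digits II-V, 0.84 without digits II-V and 0.92 without the foot web. Each of these refits leaves 1 library on a side, so their calls are not given. The thumb-side libraries are not compared here but enter the spread of this fit. Without digit I, 9 were called higher, against 180 of the 19529. Without the web of digits I-II 8 were called higher, against 179.

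Component comp20379_c0 scored 151 in hindlimb digits and 87 in foot web, against 21 and 0 in the wing counterparts and 28 and 22 on the thumb side. The buds had 0 to 5, the metacarpals 6 and the metatarsals 304. The foot pieces lay above every other earlier piece, and the foot to wing log2 difference was 4.62 (SE 0.76, limma adjusted p = 0.017). Since a wing library is at 0 that size depends on the pseudocount, and it was 5.64 with 0.25 and 3.39 with 5.

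Component comp19368_c0, the highest ratio of all, scored 84 and 35 in foot digits and web, 17 and 2 in the wing counterparts and 34 and 10 on the thumb side. The buds had 0 to 2, the metacarpals 1 and the metatarsals 301. The log2 difference of foot from wing was 2.91 (SE 0.50, limma adjusted p = 0.0217). Both foot scores lay above both wing scores, and digit I lay near the foot web. In both components the forelimb was lower in the fetal bone than in the digits that came before it.

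Leaving out hindlimb digits, foot web, digits II-V or the web of digits II-V leaves 1 library on a side. Such a refit cannot decide on a call, though the tallies below include it. Over all alternatives the log2 difference ran from 2.68 to 6.57 for comp20379_c0 and from 2.27 to 3.48 for comp19368_c0. Over 15 alternatives, libraries left out included, the call was kept in 9 for comp20379_c0, 10 for comp19368_c0 and 8 for comp6811_c1, with a highest limma adjusted p of 0.766 for each, with no minimum. With no minimum only 1 of all 62373 components was called higher in foot and 0 lower, so that setting says little on these calls. Component comp17234_c0, the next after comp6811_c1 toward wing, had 21 and 17 in the wing against 9 and 8 in the foot. Its difference was -1.07 (SE 0.67, limma adjusted p = 0.658).

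Hindlimb digits were the leading earlier piece. They exceeded the 5 other S15-17 libraries in 37 of 63 (58.7%, against 15.4% of all tested and 10.8% of the metacarpal-chosen), and in 73 of the 200 (36.5%, against 17% of the 13615). Of the 63, 5 reached the minimum only through hindlimb digits, and 3 of these had their highest earlier score there. So did 25 of the 58 others. Hindlimb digits exceeded digit I in 53 of the 63 (84.1%, against 53.6% of all tested), with a median log2 difference of 1.37, against 0.038. They exceeded digits II-V in 44 (69.8%, against 53.2%), with a median of 0.21, against 0.035. The foot digits thus lay farther above the free thumb than above the wing digits.

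Between the thumb side and the wing region limma called 0 of 63, against 0.707% in either direction. The smallest limma adjusted p was 0.0886, and voom called 0. At an unadjusted limma p under 0.05, 5 were higher and 5 lower, against 1147 and 745 of the 19529. The digit and web sides of this comparison went opposite ways. Digit I was below digits II-V in 52 of 63 (median -0.91), against 9914 of the 19529. The web of digits I-II was above that of II-V in 48 (76.2%, against 51.6%, median 0.85). Leaving out 1 of the compared libraries leaves 1 on a side, so only medians are given. The median was 0.97 without digit I, -0.77 without the web of digits I-II and 0.60 without digits II-V. Component comp8836_c0 had 36 and 43 on the thumb side against 17 and 3 in the wing, a log2 difference of 2.25 (SE 0.55, limma adjusted p = 0.0983). For comp20379_c0 the difference was 2.46 (SE 0.76, limma adjusted p = 0.238). Toward the wing, comp2943_c0 had 30 and 32 against 85 and 63, a difference of -1.21 (SE 0.48, limma adjusted p = 0.414). For comp15947_c0 it was -1.16 (SE 0.38, limma adjusted p = 0.275).

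The change of the limb difference between periods was not called for any of the 63, against 0.0563% of all tested. The smallest limma adjusted p was 0.0613, and the median was 0.43. At an unadjusted limma p under 0.05, 15 moved toward hindlimb and 3 toward forelimb, against 1081 and 1031 of the 19529. Without the middle bud pair the median was 0.05 and 7 were called toward hindlimb, against 250 of the 19529. Without the anterior pair 4 were called so, against 15. Leaving out the digit pair leaves 1 pair at S15-17, with a median of 0.37. Component comp20379_c0 had 5.07 (SE 1.37, limma adjusted p = 0.241) and comp6014_c0 4.44 (SE 1.12, limma adjusted p = 0.196). The latter had bud scores of 22, 42 and 29 (forelimb) and 18, 4 and 11 (hindlimb), then 30 and 0 in wing digits and web and 51 and 31 in the foot. Toward forelimb, comp15241_c0 had -2.20 (SE 0.85, limma adjusted p = 0.402) and comp316_c0 -1.61 (SE 0.80, limma adjusted p = 0.484).

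Behind these comparisons lay a course over the pieces that many of the 63 tested components had in common. It was looked for after the values had been seen and is given as description. At S14 the middle forelimb bud exceeded the 5 other buds in 33 of 63 (52.4%, against 13.6% of all tested and 15.3% of the metacarpal-chosen). At S15-17 the web of digits II-V lay below digits II-V, the web of digits I-II and hindlimb digits in 43 (68.3%, against 28.4% and 13.5%). The forelimb middle bud above its anterior and posterior neighbours, together with that low web, was found in 35 (55.6%, against 8.25% and 7.21%). Over the 200 without the minimum the shares for the middle bud and the low web were 32.5% and 49.5%, against 14.2% and 30.5% of the 13615. The forelimb middle bud above its neighbours together with the low web was found in 61 of the 200 (30.5%, against 9.39%). The hindlimb had no such middle: its middle bud exceeded both neighbours in 15 of 63 (23.8%, against 38.3%), the forelimb middle bud in 49 (77.8%, against 35.6%).

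The mean Pearson r between pairs of components over the 12 libraries was 0.27 among the 63, 0.08 among the 111 metacarpal-chosen and 0.01 among all tested. With each period centred it was 0.24 among the 63. These components share the libraries, 1 to a piece, so a property of 1 library enters all of them alike. Whether the tissue taken or the animal sampled plays a part was not tested. Component comp510_c0 carries this course in full, and comp9516_c0 does so at lower scores, with 28, 38, 83, 7, 101 and 23 in digit I, the web of digits I-II, digits II-V, their web, hindlimb digits and foot web.

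**Figure D5:**
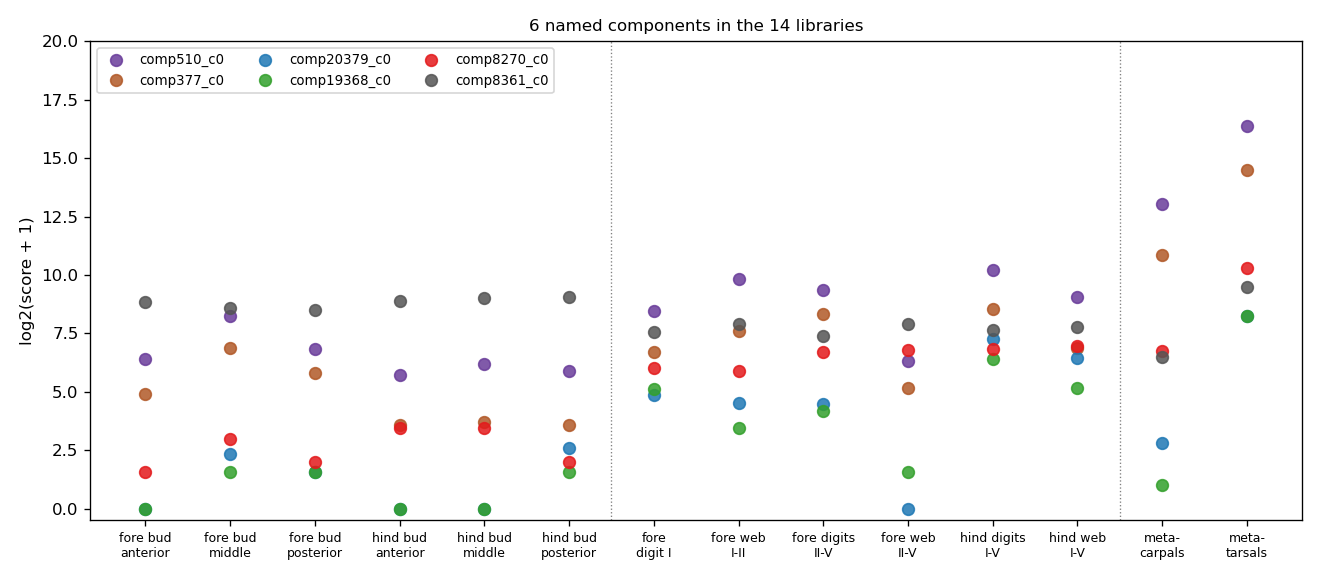
Scores of named components in the 14 libraries on a log2(score + 1) axis, grouped by period. Components comp510_c0 and comp377_c0 are highest in the middle forelimb bud among the buds and in hindlimb digits at S15-17, while comp8361_c0 runs lower at S15-17 than in every bud.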

How the data were processed

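The deposited table gives a score per assembled component and library. Per the labels' protocols, DNase-treated total RNA was made into TruSeq libraries, and the tools named in the submitters' processing notes, with no role or order, are CASAVA 1.8, RSEM and edgeR. How the components were assembled and the scores scaled was not given in the sources used here. The scores are whole numbers summing to 9191852 to 11045040 per library. In each library 99.969% to 100% of the nonzero scores equal a whole multiple of 1 step after rounding, and the step, fitted on scores up to 2000, was taken as 1 read. Since the scores are rounded normalized values, no count model was fitted.

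Differences were tested, two-sided, with limma 3.58.1 in R 4.3.3 (variance trend) on log2(score + 1), over the 19529 components with a mean of at least 10 over the 12 earlier libraries, with the matched piece, tissue or region as block and limb as covariate for stage. Pieces were matched by the anatomy that the labels give. The scripts were tested on simulated data. Python 3.11.15 was used for the description.

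The components and comparisons were chosen with earlier results of these data known. Those named per comparison and direction are the 2 of largest log2 difference with the same sign in every pair (stage: without overlap), called ones first. Named besides are the 2 of highest ratio, of highest metatarsal score and of highest earlier mean, and those at the edge of the list. comp9058_c0 and comp5495_c0, and the shared course over the pieces, were chosen after seeing values. The list of 200 was filled after leaving out the 2 components, and removing them from a list of 200 would leave 199.

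Alternatives were pseudocounts of 0.25 and 5, no minimum, other scalings, robust shrinkage, voom on recovered reads, no block, leaving out libraries or pairs, and other list rules. A minimum over all 14 libraries or over only those fitted, and digit against web without the thumb side with the latter, were chosen after seeing the data.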

Additional observations from a re-analysis of the deposited data

Results flagged for a closer look

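Among the 6 S14 libraries, the middle forelimb bud stood apart in the median score of the 63 tested components, at 31 against 11 to 16 in the 5 other buds, a gap of 0.75 of the whole range. The same library stood apart in comp9516_c0, at 46 (0.761 of the range), in comp17234_c0, at 84 (0.78), and in comp510_c0, at 298 (0.748). For comp11501_c0 the anterior forelimb bud stood apart, at 219 (0.73). These passed Dixon's value of 0.625 for 6 samples. Of 52 groups of 6 values examined, 5 did so. The rate of about 1 in 20 for unselected values is no guide here. Many of the components were named for large differences over these same libraries, and they are not independent. Component groups of low scores could not be flagged.

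Pieces of the same comparison differed in direction, and these differences between pieces were not tested. The median log2 difference of digit from web was -0.6 for the thumb, 1.363 for the wing and 1.064 for the foot. The median log2 difference of hindlimb from forelimb was 0.248 in the anterior, -0.773 in the middle and 0.222 in the posterior bud. The middle forelimb bud and digit I are each 1 library, of 5727942 and 4550754 reads.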

How the results depend on the processing

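Over all comparisons 166 recomputed counts of called components equalled the reported count or stayed within 1.5 times of it, and 54 did not. A count of 0 that stayed 0 is among the 166. The reported counts were 0 in both directions for the 5 limb pairs, the thumb side, digit against web and the interaction. The tally is therefore no measure of stability. No named component's difference changed sign under any alternative run, and the stage medians stayed positive. Other medians over the components changed sign. Over the 5 limb pairs it was -0.02 with upper-quartile scaling and -0.023 for the 100 highest ratios. In S14 buds it was 0.294 without the middle pair, 0.086 with the minimum over the libraries fitted and 0.109 for all 426. In foot against wing it was -0.199 without the web of digits II-V and -0.078 without hindlimb digits. On the thumb side it was -0.014 with upper-quartile scaling, -0.089 with voom, -0.768 and -0.446 without the webs of I-II and II-V and -0.039 for the 100. In digit against web it was -0.102 with upper-quartile scaling, and in the interaction -0.071 for the 100 and -0.051 for all 426. Upper-quartile scaling gave 1 called lower over the 5 limb pairs, against 50 of the 19529, and 7 lower in S14 buds, against 199. It gave 6 higher in foot, against 67, and 3 higher on the thumb side, against 55. In digit it gave 5 higher and 3 lower, against 90 and 2399. It gave 1 lower at S15-17, against 609, and 8 higher in the interaction, against 81. No minimum gave 51 higher at S15-17, against 4534 of 63736. It gave 0 lower in S14 buds and 0 higher and 0 lower in foot. Over all components it called 0 in S14 buds and 1 higher and 0 lower in foot, so those counts cannot speak for the 200. Robust shrinkage gave 2 lower in S14 buds, against 74 of the 19529, and 2 higher on the thumb side, against 164. It gave 1 higher in digit, against 210, and 1 higher in the interaction, against 6. Voom gave 0 lower in S14 buds, against 41, and 2 higher in digit, against 187. A fit with no block gave 0 lower in S14 buds, against 4. Median-centred libraries gave 2 higher on the thumb side, against 155, and 2 higher in digit, against 214. A pseudocount of 0.25 gave 1 higher and 0 lower in foot, against 44 and 34. A pseudocount of 5 gave 2 higher in digit, against 171, and 1 higher in the interaction, against 5. Forelimb libraries alone gave 16 higher at S15-17, against 2479. The minimum over all 14 libraries, which admits 193 of the 200 through their fetal scores, gave 59 higher at S15-17, against 3665 of 20429. It gave 0 lower in S14 buds and 0 higher and 0 lower in foot. Over all components it called 0 in S14 buds and 1 higher and 4 lower in foot, so those counts say little on the 200. The minimum over the libraries fitted gave 2 higher and 1 lower on the thumb side, against 156 and 74 of 20105. In digit it gave 2 higher, against 219, and without the thumb side 28 higher, against 340 of 20156. The cause was not tested.

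Leaving out 1 library or pair gave 0 to 5 lower in S14 buds, 0 to 9 higher and 0 to 1 lower in foot, 0 to 16 higher and 0 to 7 lower on the thumb side, 0 to 26 higher in digit, 20 to 36 higher and 2 to 4 lower at S15-17 and 0 to 7 higher in the interaction. Where a refit leaves 1 library or 1 pair on a side, limma assumes that it varies like the others, so its calls are left out here. With the 100 highest ratios the medians were 1.223 for stage and 1.138 for digit against web, and with all 426 components past the ratio 0.311 and 0.25. No paired analysis by replicate number was possible because the labels give no replicate numbers, and depth limits every score under about 10.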
